A study of Mus musculus with 20 samples.

Results

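The 40 genes described here encode the core machinery of macroautophagy and the lysosome: the kinase complex that starts an autophagosome, the lipid kinase complex, membrane carriers, conjugation enzymes, the LC3 and GABARAP proteins, a cargo receptor, 2 transcription factors, and membrane and lumen proteins of the lysosome. All 40 were among the 24421 gene symbols of the count files, and all 40 passed the filter on low counts that left 14792 genes for testing. RNA came from mouse embryonic stem cells turned into motor neurons of a pair of types, NIL (labelled spinal) and NIP (labelled cranial). In this field NIL stands for forced expression of Neurog2, Isl1 and Lhx3, and NIP for Neurog2, Isl1 and Phox2a. Each type was sampled untreated at 0 h, 12 h and 36 h, and at 12 h and 36 h with 20 µM cyclopiazonic acid (CPA), with 2 libraries in each of the 10 groups. CPA blocks the SERCA calcium pumps of the endoplasmic reticulum (ER) and so causes ER stress. Treatment began on day 2 of neuronal culture, and the question set for the series is how the 2 motor neuron types respond to protein misfolding stress. The titles and the extraction text give the later times as 12 h and 36 h, whereas the treatment text and design text give 6 h and 12 h, and the titles were followed. The labels do not say whether the 2 replicates of a group were separate differentiations, so p-values measure the spread between these libraries, which may be technical.

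In autophagy, the ULK1 kinase complex is switched on when nutrients or growth signals fall, and the class III PI3 kinase then marks the forming membrane with a lipid that WIPI proteins bind. ATG9 and ATG2 supply lipid, a pair of ubiquitin-like conjugation systems attaches LC3 and GABARAP proteins to the membrane, and the closed autophagosome fuses with a lysosome, whose cathepsins and other hydrolases degrade the content. TFEB and TFE3 are transcription factors that activate many lysosomal and autophagy genes through the CLEAR element, an E-box with preferred flanking bases. Motor neurons depend on this route to clear protein aggregates, and several genes of the pathway are mutated in motor neuron or lysosomal storage disease. The counts measure RNA only and give no measure of autophagic flux.

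Gene reads per library ran from 7996454 to 30321152. Rn45s, the ribosomal precursor gene, took 5.18% to 38.6% of gene reads, and 2 libraries stood apart with 38.6% (untreated NIP 36 h, replicate 1) and 38.3% (CPA-treated NIL 36 h, replicate 2). Of 10 ER stress genes, 10 rose after 12 h of CPA in NIL and 9 in each of the other 3 CPA comparisons. Without CPA, 6 of the 10 were higher in NIP than in NIL at 0 h (median log2 difference 1.10), and from 0 h to 36 h in untreated NIP their median log2 change was -0.96, with 1 lower and, with the block, 8 lower. The part of this in the 0 h values of NIP was not tested. Neuronal markers were present in every library, with a summed level over 14 genes of 1765 to 7107 CPM (reads of a gene scaled to the size of its library), with Isl1 and Slc18a3 found in all 20 and Lhx3, the spinal factor, at 0 in 6. Markers of other cell types were present too. Markers of endoderm and endothelium summed to 3417 to 36784 CPM in NIL and to 517 to 9406 CPM in NIP. The largest terms of this sum were Col4a1, Lama1, Lamb1, Col4a2 and Sparc, with highest values of 4661 (Sparc) to 10936 CPM (Col4a1). The endothelial markers Pecam1, Kdr and Cdh5 reached at most 5.52, 5.77 and 53.9 CPM, so the sum is no measure of endothelial cells. In bulk RNA, fewer cells of a type and less RNA per cell cannot be told apart. Calls are given from the fit without the replicate number. Libraries with the same replicate number deviated together, so a fit with that number as a block is also given where its calls differ. Fits that left out a library were run without the block. A gene is called where its adjusted p is below 0.05.

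The level of the 40 genes was compared per kilobase of exon, since longer genes collect more reads. Ctsd, the aspartic protease cathepsin D, had the highest median over the 20 libraries at 164 CPM per kb (range 93.9 to 267). It was followed by Lamp1, the main glycoprotein of the lysosomal membrane, with 159 (134 to 283), and by Psap, the precursor of the saposins that activate sphingolipid hydrolases, with 145 (87.9 to 239). The ranges of these 3 overlapped, so their order is not settled. Gabarap (118 CPM per kb), Gabarapl1 (101) and Map1lc3a (98.4), which encode proteins that are attached to the autophagosome membrane, came next, and their ranges also overlapped. The ULK1, PI3 kinase and ATG genes lay lower, between 1.98 CPM per kb for Atg10 and 32.3 for Ulk2. The lowest medians were those of Wipi1 (4.40), Atg10 (1.98), Tfeb (1.33) and Mcoln3 (0.347 CPM per kb), and the last of these, a calcium channel of endosomes and lysosomes, was at 0 in some libraries.

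After 12 h of CPA, Atg13 rose in both motor neuron types. Atg13 encodes the adaptor subunit that holds the ULK1 complex together, and the gene lies on the minus strand of chromosome 2 at 91674618 to 91710576 (GRCm38). In NIL its level was 60.9 and 58.3 CPM untreated and 101.3 and 100.2 CPM with CPA. In NIP it was 56.8 and 61.2 CPM untreated and 111 and 117 CPM with CPA. All 4 treated libraries lay above all 4 untreated ones, with no overlap in either type. The log2 change was 0.76 (SE 0.13) in NIL with an adjusted p of 0.00722, and 0.95 (SE 0.13) in NIP with an adjusted p of 0.00151. Without any 1 of the 4 libraries the NIP call held, at adjusted p of up to 0.0394, whereas in NIL each of the 4 omissions moved the adjusted p above the threshold, to 0.0522 to 0.0773, while the log2 change stayed between 0.73 and 0.79. The change in each replicate set taken alone, on the log2(CPM + 0.5) scale, was 0.73 and 0.78 in NIL and 0.96 and 0.93 in NIP.

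At 36 h Atg13 was called in neither type. Levels were 54.4 and 59.4 CPM untreated and 61.6 and 78.1 CPM with CPA in NIL, and 67.2 and 71.3 CPM untreated and 73.8 and 74.4 CPM with CPA in NIP. The treated libraries were still the higher ones in each type, but the log2 changes of 0.29 (adjusted p 0.272) and 0.10 (adjusted p 0.809) did not pass. The 36 h response in NIP was lower than the 12 h response by 0.85 (SE 0.18) on the log2 scale, which did not pass without the block (log2 difference -0.85, adjusted p 0.237) and passed with it (adjusted p 0.0310) and in DESeq2 (adjusted p 6.41e-04). In NIL the same difference was -0.46 with an adjusted p of 0.970. The response did not differ between NIP and NIL beyond the spread, with log2 differences of 0.20 (SE 0.18) at 12 h and -0.20 (SE 0.18) at 36 h.

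The 250 bases before the RefSeq start of Atg13 (chr2:91710593-91710842, GRCm38.p6, minus strand) are shown because Atg13 was the member called in both types. They held none of the 3 motifs searched, the E-box CACGTG, the CLEAR core TCACGTGA around it, and the C/EBP-ATF response element TGATGNAA that CHOP and ATF4 can bind. The RefSeq start is not a transcript start in the GENCODE annotation used for gene positions.
Atg13: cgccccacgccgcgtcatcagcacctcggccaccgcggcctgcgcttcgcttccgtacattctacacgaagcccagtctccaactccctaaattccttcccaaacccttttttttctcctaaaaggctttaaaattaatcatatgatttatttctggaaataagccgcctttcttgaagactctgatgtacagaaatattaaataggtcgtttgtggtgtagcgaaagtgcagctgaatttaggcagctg
Absence of these letters from this window says nothing about sites elsewhere in the gene.

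**Figure D1:**
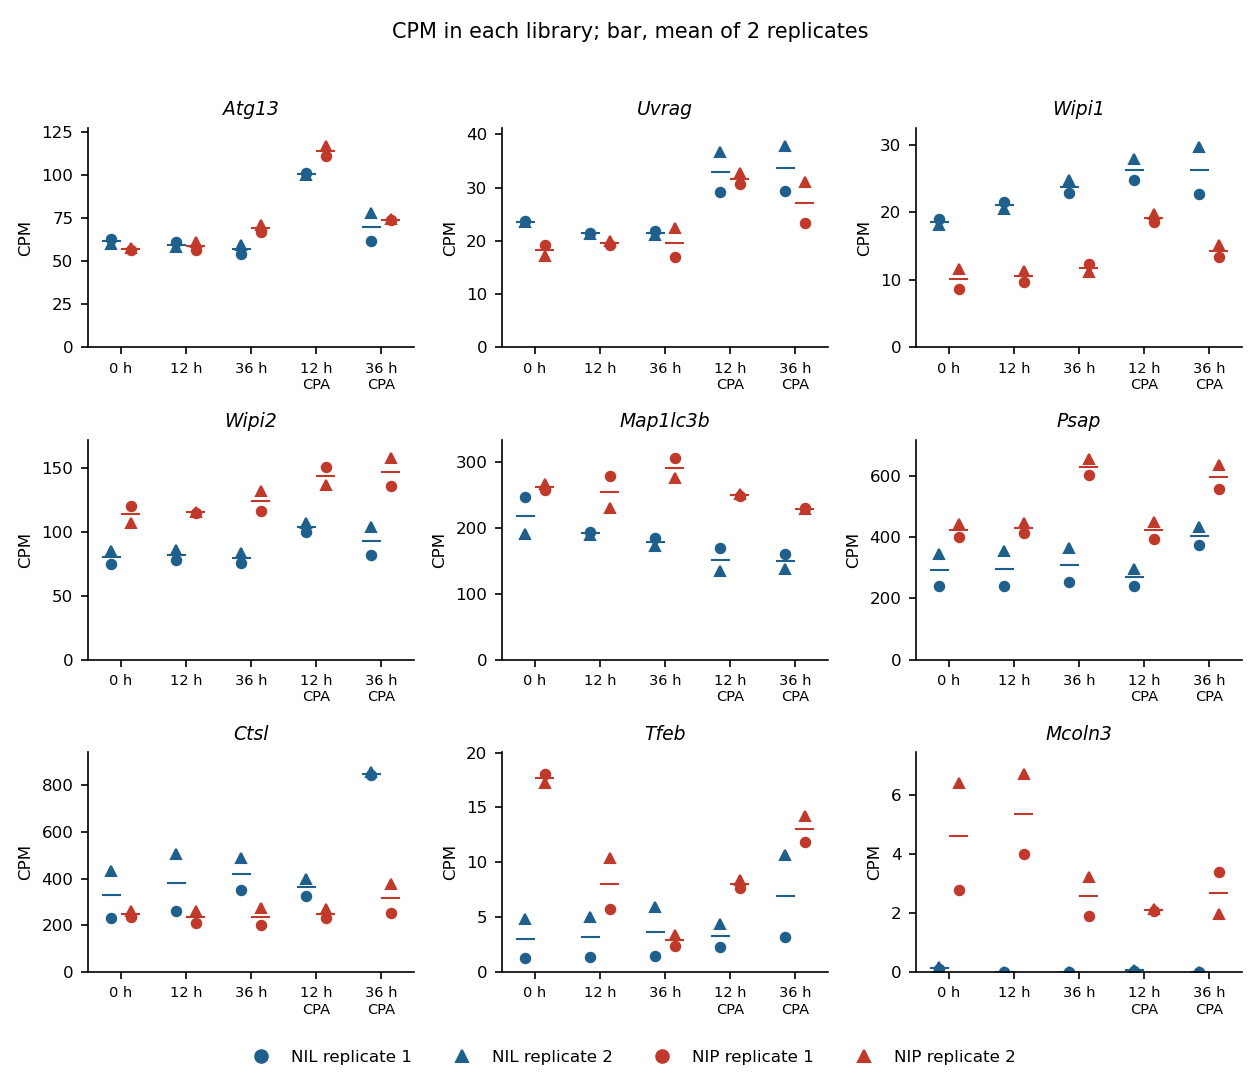
CPM in each library (y axis) for 9 member genes, by time and treatment (x axis): blue, NIL; red, NIP; circles, replicate 1; triangles, replicate 2; bars, mean of the 2 replicates. Atg13 stood above all untreated libraries in the 4 libraries with 12 h of CPA, Ctsl was highest in the 2 NIL libraries with 36 h of CPA (843 and 857 CPM), and Mcoln3 was at or near 0 in NIL.

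Of the other initiation genes, Ulk1 and Ulk2, the paralogous kinases, and Rb1cc1, the scaffold FIP200, none passed at 12 h in either type. Ulk1 was at 203 and 166 CPM untreated and 137 and 155 CPM with CPA in NIL at 12 h, a log2 change of -0.34 with an adjusted p of 0.504. Rb1cc1 has a processed pseudogene copy of 94.8% identity over 62.7% of its transcript, so some of its reads may have been lost as not unique. Atg13 was the 1 gene of the 4 in this complex that was called.

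Across all 40 genes, 1 was called after 12 h of CPA in NIL (Atg13), where 2.21% of all genes tested were called. In NIP 2 were called (Atg13 and Wipi1), where the share of all genes was 4.71%. The shares are close to those of the whole table, so the counts alone do not set the list apart. Mcoln3 was at or below the floor of 3 counts over the group in NIL, and the medians leave it out. The median log2 change over the other 39 members was -0.11 in NIL and 0.04 in NIP, beside -0.03 and -0.01 over all genes. Over all 40 members the sign of this median turned when 1 library was left out, to 0.09 in NIL (without untreated replicate 2) and -0.01 in NIP (without CPA replicate 2). In NIL, 8 members lay wholly above and 10 wholly below the untreated libraries, beside 17.8% and 19.9% of all genes. In NIP, 13 lay above and 9 below, beside 27.1% and 27.9% of all genes. Neuron markers summed to 5598 and 4142 CPM untreated and 3597 and 2408 CPM with CPA in NIL, and to 6830 and 5866 against 4688.5 and 3682 CPM in NIP, and the part of this in the 12 h values was not tested. Over both times and types, 24 of the 40 genes were called in no CPA comparison by either fit, among them Becn1, Atg5, Atg7 and Ctsb. The matching share over all genes was not counted, so this number does not set the members apart.

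Wipi1 encodes a protein that binds the lipid made by the class III PI3 kinase. In NIP it went from 9.76 and 11.3 CPM untreated to 18.6 and 19.8 CPM with 12 h of CPA, so the groups did not overlap. The log2 change was 0.87 (SE 0.18, adjusted p 0.0152), and it was 0.90 and 0.78 in the 2 replicate sets. Each of the 4 omissions of a library ended the call, with adjusted p from 0.0653 to 0.176. In NIL, where the untreated level was already 21.5 and 20.6 CPM, CPA gave 24.8 and 27.9 CPM, a log2 change of 0.32 (adjusted p 0.487). The NIP response exceeded that of NIL by 0.54 (SE 0.25) on the log2 scale with an adjusted p of 1.00, so the difference between the types was not shown. At 36 h Wipi1 was at 12.4 and 11.1 CPM untreated and 13.4 and 15.2 CPM with CPA in NIP (log2 change 0.28, adjusted p 0.566).

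With the replicate number as a block, the counts at 12 h rose to 4 in NIL (2 higher, 2 lower) and 5 in NIP (4 higher, 1 lower), where 7.94% and 14.1% of all genes were called. Uvrag, a subunit of the PI3 kinase complex that acts on late endosomes, was among them in both types. It was at 21.4 and 21.4 CPM untreated and 29.2 and 36.7 CPM with CPA in NIL, and at 19.3 and 20.0 CPM untreated and 30.6 and 32.8 CPM with CPA in NIP. No treated library overlapped the untreated ones. The log2 changes without the block were 0.62 in NIL and 0.69 (SE 0.19, adjusted p 0.0535) in NIP, and with it the adjusted p was 0.0299 in NIL and 0.00839 in NIP. Tfe3 also passed with the block in NIP, from 56.0 and 64.9 CPM untreated to 91.3 and 87.1 CPM with CPA (log2 change 0.58, adjusted p 0.0328 with the block and 0.326 without).

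The members that were lower with the block at 12 h were Gabarapl2 and Npc2 in NIL and Mcoln3 in NIP. Gabarapl2, a GABARAP protein that also acts in Golgi transport, was at 94.6 and 96.6 CPM untreated and 72.0 and 54.8 CPM with CPA in NIL. Its log2 change was -0.59 with an adjusted p of 0.0886 without the block. Near-identical pseudogenes (4 of them, up to 99.4% identity) may take part of its reads. Npc2, the soluble protein that carries cholesterol out of lysosomes, was at 83.4 and 104 CPM untreated and 66.5 and 54.2 CPM with CPA in NIL, and at 132 and 137 CPM untreated and 109.8 and 101 CPM with CPA in NIP. The treated libraries were lower in both types, but the NIP change of -0.35 did not pass in either fit (adjusted p 0.270 and, with the block, 0.138).

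In edgeR without the block, none of the 5 LC3 and GABARAP genes was called in any of the 4 CPA comparisons, while DESeq2 called Gabarapl2 lower at 12 h in NIL (adjusted p 0.0144). Median log2 changes were -0.28 (NIL) and -0.03 (NIP) at 12 h, and -0.31 (NIL) and -0.18 (NIP) at 36 h. Map1lc3b, the LC3 form most used as an autophagosome marker, was at 195 and 189.7 CPM untreated and 169 and 135 CPM with CPA in NIL at 12 h. In NIP at 36 h it was at 306 and 276 CPM untreated and 229.7 and 229 CPM with CPA. Both treated groups lay below the untreated ones, with log2 changes of -0.34 (adjusted p 0.409) and -0.35 (adjusted p 0.396) that did not pass. Nbr1, a receptor that links ubiquitin-tagged cargo to LC3, had a log2 change of 0.34 at 12 h in NIL (adjusted p 0.267) and of 0.06, 0.07 and -0.08 in the other 3 CPA comparisons, with no call.

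**Figure D2:**
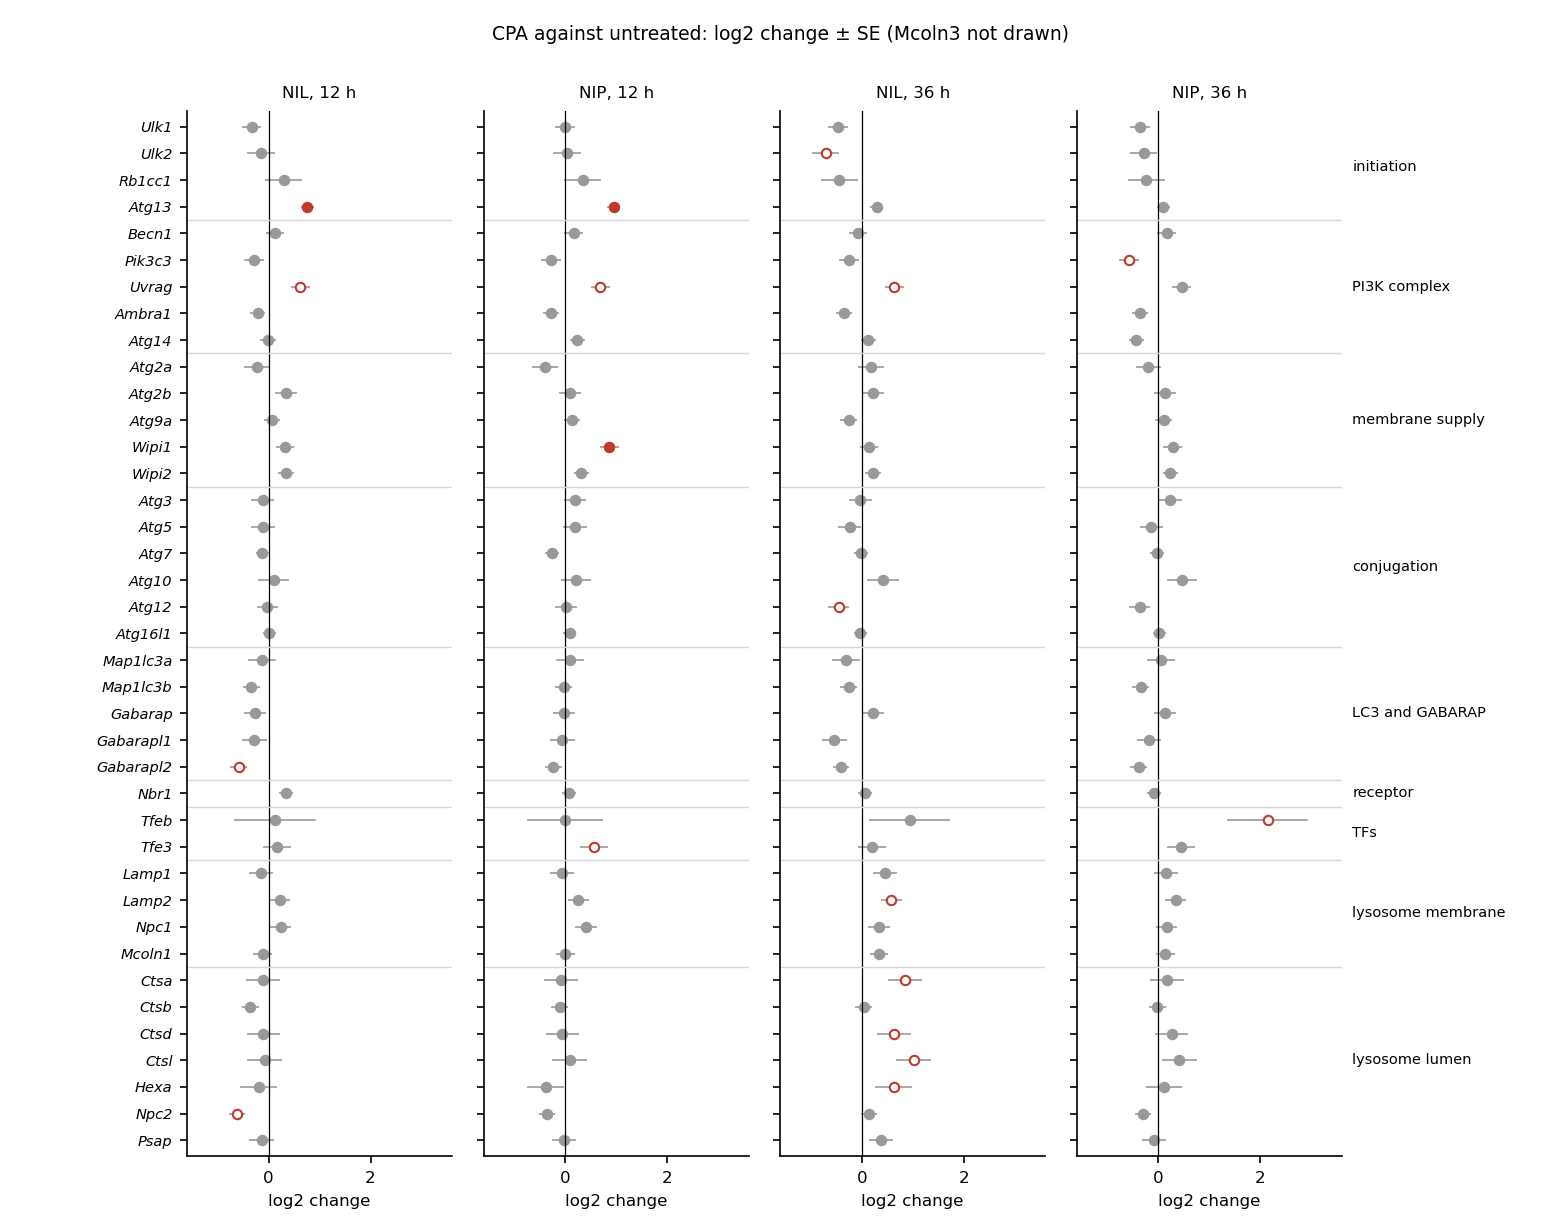
Log2 change with CPA ± SE (x axis) for 39 of the 40 genes, grouped by role (y axis), in NIL and NIP at 12 h and 36 h. Filled red points passed in the fit without the block (Atg13 at 12 h in both types, Wipi1 at 12 h in NIP), open red points passed with the replicate block alone, and grey points passed in neither.

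After 36 h of CPA in NIL, members were called in the fit with the replicate block alone, in a share near that of all genes. Without the block, edgeR called 0 of the 40 genes, where 0.980% of all genes were called. At an unadjusted p below 0.05 there were 10 members, 5 higher and 5 lower, beside 17.2% of all genes, and DESeq2 called 1, Uvrag, beside 4.37%. With the block, 8 members were called where 18.2% of all genes were called: Ctsa, Ctsd, Ctsl, Hexa, Lamp2 and Uvrag were higher, and Ulk2 and Atg12 were lower. All 7 genes of the lysosomal lumen had positive log2 changes, with a median of 0.62 beside 0.01 over all genes. In this comparison 14 members lay wholly above and 9 wholly below the untreated libraries, beside 21.0% and 22.4% of all genes.

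Ctsl, the cysteine protease cathepsin L, had the largest change in NIL at 36 h. It was at 349 and 490.4 CPM untreated and 843 and 857 CPM with CPA, so that both treated libraries stood above every other library of the series. The log2 change was 1.02 (SE 0.35, adjusted p 0.165), and 1.05 (SE 0.20, adjusted p 0.00385) with the block. In the replicate sets it was 1.27 and 0.80. In NIP, 200 and 274 CPM untreated became 254 and 377 CPM with CPA, groups that overlapped, with a log2 change of 0.41 (adjusted p 0.671). The difference between the types was -0.61 (SE 0.48) and was not called in either fit (adjusted p 1.00 and, with the block, 0.492).

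Ctsa, the carboxypeptidase that protects other hydrolases in a complex, was at 86.5 and 150.2 CPM untreated and 181 and 245 CPM with CPA in NIL at 36 h. The groups did not overlap, and the log2 change was 0.85 (adjusted p 0.221) and 0.88 with the block (adjusted p 0.00317). About 22.3% of its exon bases overlap Neurl2 and Pltp on the other strand, and without a stated strand setting those reads cannot be told apart. Ctsd was at 246 and 403 CPM untreated and 439.6 and 567 CPM with CPA, a log2 change of 0.63 (adjusted p 0.340 and, with the block, 0.0275). Hexa, the alpha subunit of beta-hexosaminidase, was at 21.2 and 26.4 CPM untreated and 33.2 and 40.1 CPM with CPA (log2 change 0.62, adjusted p 0.389 and, with the block, 0.0236). Lamp2, the membrane protein that autophagosome fusion depends on, was at 97.5 and 105 CPM untreated and 142 and 161 CPM with CPA (log2 change 0.58, adjusted p 0.182 and, with the block, 0.0349). In each of these 4 genes both treated libraries lay above both untreated ones in NIL. Ctsb, cathepsin B, stood apart from these, with a log2 change of 0.04 and libraries that overlapped.

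Of the members that were lower in NIL at 36 h with the block, Ulk2 was at 184 and 143 CPM untreated and 120.4 and 79.0 CPM with CPA (log2 change -0.71, adjusted p 0.211 and, with the block, 0.00824). Atg12, the ubiquitin-like protein joined to ATG5, was at 121 and 93.8 CPM untreated and 90.2 and 66.9 CPM with CPA (log2 change -0.45, adjusted p 0.293 and, with the block, 0.0338). Both treated libraries of each gene lay below both untreated ones.

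Markers of other cell types were also higher in these libraries. In NIL at 36 h the 13 endoderm and endothelium markers summed to 6282 and 20862 CPM untreated and to 18110.2 and 36784 CPM with CPA, with none of the 13 at 0. The 14 neuron markers summed to 5399 and 3750 CPM untreated and to 3608 and 1765 CPM with CPA. Pluripotency markers summed to 147 and 460.2 CPM untreated and 273 and 755 CPM with CPA, and mesenchyme markers to 85.6 and 209 against 225 and 307 CPM. Macrophage and microglia markers stayed near 0, with 1.88 and 4.28 CPM against 6.60 and 9.89 CPM and 7 of 12 markers at 0 in the treated group. Their part in the lysosomal values was not tested. In NIP at 36 h the endoderm sums were 792 and 4125 CPM untreated and 517 and 9406 CPM with CPA, lower in set 1 and higher in set 2.

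Between the 2 replicate sets, which differ in the same markers, the lysosomal genes also differed. Over all 10 groups, 5 of the 7 lumen genes were higher in set 2 than in set 1 (Ctsa, Ctsd, Ctsl, Hexa and Psap), each in 10 of 10 groups, by 0.29 (Psap) to 0.51 (Hexa) on the log2 scale. Among all 40 genes, 12 were higher and 7 lower in set 2, or 47.5%, beside 49.2% of all genes tested, so the list as a whole was not more affected than the table. In NIL the endoderm and endothelium markers summed to 3417 to 18110.2 CPM in set 1 and to 12090.0 to 36784 CPM in set 2, and in NIP to 517 to 1184 CPM and 3425 to 9406 CPM. The part of the cell mixture in these differences was not tested. Without the 2 libraries high in Rn45s, left out after the data were seen, the log2 changes in NIL at 36 h were 1.03 for Ctsl, 0.65 for Ctsa, 0.47 for Ctsd, 0.51 for Hexa and 0.51 for Lamp2, with no gene of the table called.

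**Figure D3:**
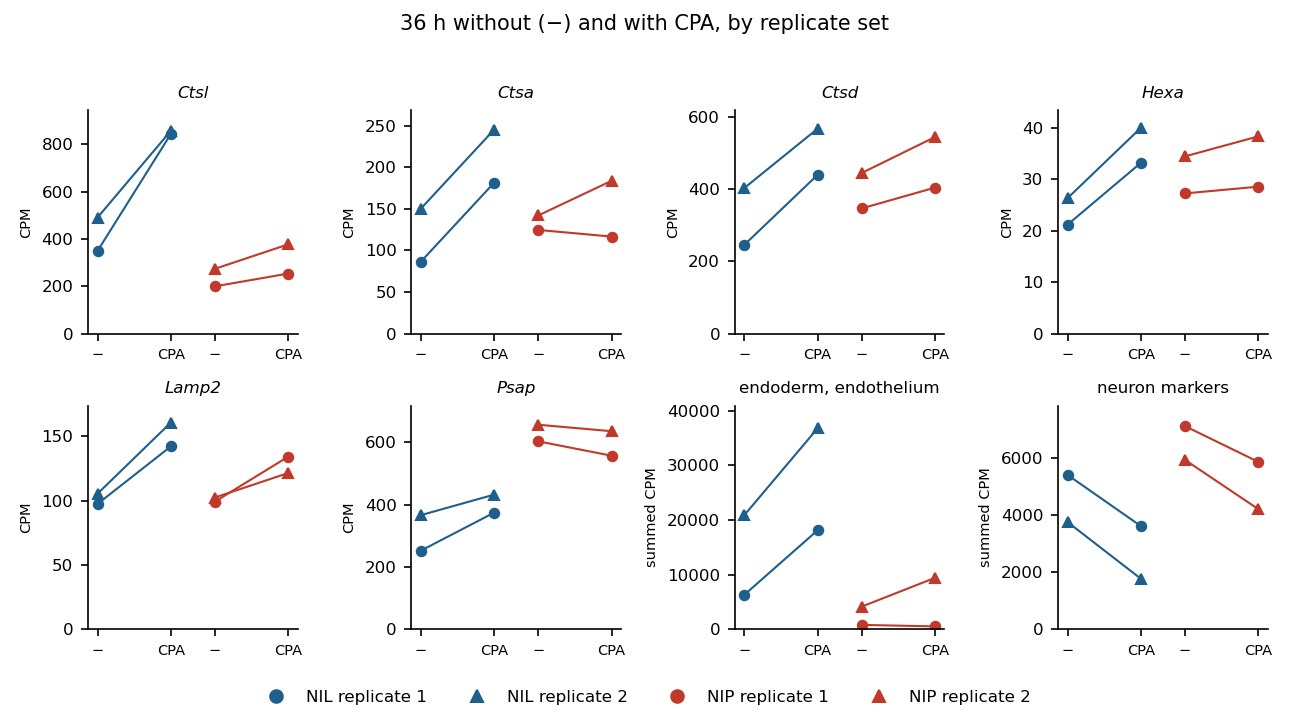
CPM at 36 h without (-) and with CPA for 6 lysosomal genes, and summed CPM of the endoderm and endothelium markers and of the neuron markers (y axes), with a line for each replicate set (circles, set 1; triangles, set 2) in NIL (blue) and NIP (red). In NIL the 6 genes and the endoderm sum were higher with CPA in both sets and the neuron sum was lower; in NIP Ctsa, Psap and the endoderm sum did not move up in both sets.

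Sequences before RefSeq starts of members are shown because TFEB and TFE3 activate many lysosomal and autophagy genes through the CLEAR element. Whether they act on these members in these cells was not tested. Windows of 250 bases before a RefSeq start were found for 32 of the 40 genes and were searched on both strands. The E-box CACGTG was present in 8 of the 32, which included 5 of the 10 lysosomal members with a window, beside 6.02% of 32851 windows of that length. Members are counted as genes with a match in any of their windows, and some have more than 1, whereas the shares are per window. The units are therefore not alike. The CLEAR core TCACGTGA, which contains the E-box, was in 4 (Atg3, Ctsa, Ctsd and Mcoln1), beside 0.785% of windows. The C/EBP-ATF element TGATGNAA was in Ctsl alone among the members, beside 3.45% of windows. A match is a description of the letters and not evidence of binding. Each 30-base stretch below is written 5′ to 3′ on the gene's strand (GRCm38.p6, RefSeq starts), with 1 motif match in capitals. The 3 lysosomal and 1 conjugation gene that hold the CLEAR core come first, then 4 that hold the E-box without that core. The Lamp1 stretch holds a further E-box, 28 to 23 bases before the start, in lower case.
Ctsa, chr2:164833743-164833772: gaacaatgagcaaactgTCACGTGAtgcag
Ctsd, chr7:142387908-142387937: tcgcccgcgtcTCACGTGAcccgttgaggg
Mcoln1, chr8:3500462-3500491: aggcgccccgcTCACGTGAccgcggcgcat
Atg3, chr16:45158746-45158775: ggagagtcgagTCACGTGAggccttaggtg
Lamp1, chr8:13159131-13159160: ggcacgtgaccacatCACGTGcggaacgga
Ctsl, chr13:64370739-64370768: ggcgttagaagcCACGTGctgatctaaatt
Atg5, chr10:44268309-44268338: agggcggagcgcttgcCACGTGgtcttggt
Atg7, chr6:114670952-114670981: catattggtggtCACGTGtgcagtaagtga
The RefSeq starts of Atg5 and Atg7 are not starts of a GENCODE transcript, and the Atg7 window lies inside the gene, whose GENCODE start is 114643097. The Ctsl window and the Ctsa window with the motif also lie inside their genes, whose GENCODE 5′ ends are 64370890 and 164832873. In Ctsd and Mcoln1 the CLEAR core itself lies inside the gene, past the GENCODE 5′ ends at 142388038 and 3500457. The Atg3 window ends at 45158828, past the GENCODE start at 45158785. Apart from Atg5 and Atg7, the bases after each RefSeq start were found within a GENCODE transcript, not necessarily at its beginning. Ctsa has another RefSeq start whose window held no motif. In Ctsa the CLEAR core lies 13 to 6 bases before the start, in Mcoln1 46 to 39, in Atg3 72 to 65 and in Ctsd 99 to 92.

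The Ctsl window (chr13:64370521-64370770, minus strand) is given whole because it alone held both kinds of motif. This window lies inside the gene as annotated in GENCODE, whose 5′ end is 64370890, and holds 0 exon bases. It may therefore not be the promoter. Its E-box lies 236 to 231 bases before the start, and the C/EBP-ATF element, read on the opposite strand, 153 to 146 bases before it. The Lamp1 window (chr8:13158911-13159160, plus strand) held 4 E-boxes, more than any other member, all within 61 bases of the start. Capitals mark the motifs.
Ctsl: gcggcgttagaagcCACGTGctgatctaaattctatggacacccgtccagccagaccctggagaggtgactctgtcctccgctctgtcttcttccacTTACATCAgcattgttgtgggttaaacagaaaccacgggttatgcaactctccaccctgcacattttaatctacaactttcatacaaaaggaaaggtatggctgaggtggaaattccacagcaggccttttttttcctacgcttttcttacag
Lamp1: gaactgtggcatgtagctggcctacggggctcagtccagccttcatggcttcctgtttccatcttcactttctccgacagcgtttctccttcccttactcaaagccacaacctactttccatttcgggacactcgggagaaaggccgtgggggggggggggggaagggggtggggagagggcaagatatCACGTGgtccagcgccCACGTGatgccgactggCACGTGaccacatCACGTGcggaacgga
Members with and without the motif were among those called. Of the 5 lysosomal members with an E-box, Ctsa, Ctsd and Ctsl passed in NIL at 36 h with the block, while Lamp1 (346 and 491 CPM untreated, 519 and 630.2 CPM with CPA) and Mcoln1 did not, and Hexa and Lamp2 passed without holding one in this window. In NIP at 36 h neither fit called any of these genes.

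**Figure D4:**
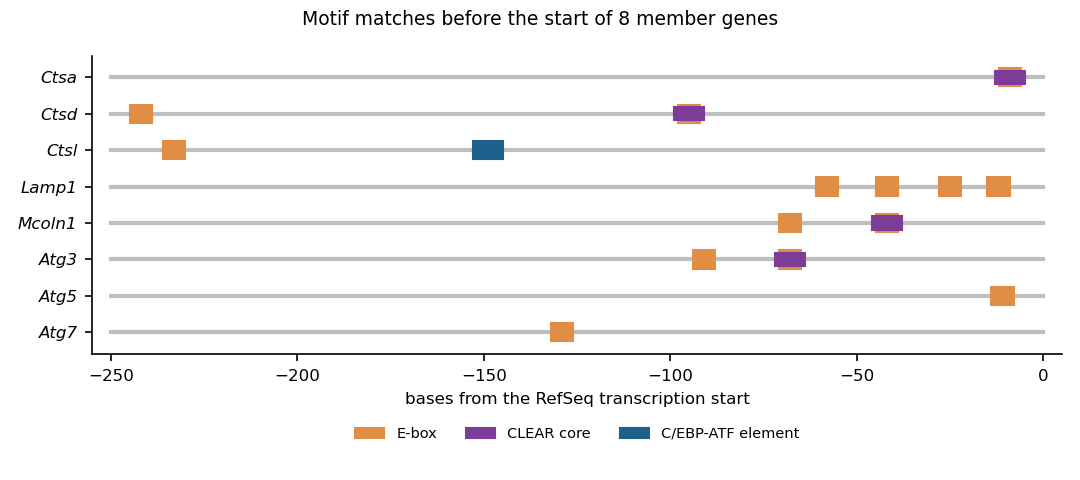
Positions of motif matches in the 250 bases before the RefSeq start (x axis, bases from the start) of the 8 member genes that hold one (y axis); orange, E-box; purple, CLEAR core, drawn over the E-box it contains; blue, C/EBP-ATF element. The CLEAR core occurs in Ctsa, Ctsd, Mcoln1 and Atg3, and Lamp1 holds 4 E-boxes.

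Tfeb, which encodes a regulator of lysosomal genes, had a low level. In untreated NIP it was at 18.1 and 17.2 CPM at 0 h, 5.72 and 10.4 CPM at 12 h and 2.38 and 3.39 CPM at 36 h. With CPA at 36 h it was at 11.8 and 14.2 CPM, above the untreated libraries of the same time and below those at 0 h. The log2 difference from 0 h to 36 h was -2.59 (SE 0.81) with an adjusted p of 0.144 without the block and 0.00532 with it. The difference with CPA at 36 h was 2.15 (SE 0.80, adjusted p 0.228) and with the block 2.28 (SE 0.51, adjusted p 0.0120). In NIL, Tfeb was at 1.24 to 5.93 CPM in the untreated libraries and at 3.17 and 10.7 CPM with CPA at 36 h, and replicate 2 was the higher in every NIL group. The line difference in the 36 h response was 1.21 (SE 1.11) and was not called in either fit. Tfe3, its relative, was at 48.4 and 62.0 CPM untreated and 62.8 and 88.0 CPM with CPA in NIP at 36 h (adjusted p 0.548).

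In NIP, 36 h of CPA gave no call among the 40 genes without the block, where 2.33% of all genes were called by edgeR. At an unadjusted p below 0.05 there were 6 members, 2 higher and 4 lower, beside 13.5% of all genes, and DESeq2 called 0, beside 4.68%. With the block 2 were called, Tfeb higher and Pik3c3 lower, where 10.3% of all genes were called. Pik3c3, the catalytic subunit of the PI3 kinase complex, was at 50.6 and 45.3 CPM untreated and 36.5 and 27.5 CPM with CPA (log2 change -0.58, adjusted p 0.169 and, with the block, 0.0348). The groups did not overlap. Over the list, 7 members lay wholly above and 8 wholly below the untreated libraries, beside 20.9% and 20.3% of all genes. The median over the 7 lumen genes was 0.11 in NIP, beside 0.62 in NIL, and over all 40 members it was 0.07 beside 0.03 over all genes, and -0.08 without CPA replicate 2, -0.05 without untreated replicate 1 and -0.04 without both libraries high in Rn45s. Of the members, 34 of 40 in NIL and 29 of 40 in NIP had the same direction in both replicate sets. The share over all genes was not counted, so these counts do not set the members apart.

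No member was called as different in its CPA response between NIP and NIL. The test of the difference called 0 of 40 at 12 h and 0 of 40 at 36 h in edgeR, where it called 0% of all genes at both times. DESeq2 also called 0 members, beside 0.0541% and 0.108% of all genes, and the block 0, beside 0% and 0.128%. At an unadjusted p below 0.05 there was 1 member at each time, beside 2.36% and 4.40% of all genes. These were Mcoln3 at 12 h, which had 2 counts with CPA and 0 untreated in NIL, and Atg14 at 36 h. The change of response from 12 h to 36 h called 0 members in NIL, where 0.00676% of all genes were called, and 0 in NIP, where 0.0135% were, with 3 members at an unadjusted p below 0.05 in each, beside 4.20% and 5.73% of all genes. DESeq2 called 0 and 1 (Atg13), beside 0.0608% and 0.494%, and the block called 0 and 1 (Atg13), beside 0.108% and 1.09%.

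The 2 motor neuron types differed at baseline in a few members. Mcoln3 passed the filter on low counts through NIP alone, so the calls are given for the other 39 members. At 0 h, 3 of the 39 were called, 1 higher in NIP (Wipi2) and 2 lower (Wipi1, Atg14), beside 12.5% of all genes. In untreated cultures at 12 h, 3 were higher (Npc2, Atg9a, Wipi2) and 1 lower (Wipi1), beside 12.0% of all genes. At 36 h, 3 were higher (Psap, Wipi2, Map1lc3b) and 1 lower (Wipi1), beside 11.6% of all genes. The median log2 difference over these 39 members was 0.12, 0.12 and 0.19 at 0 h, 12 h and 36 h, beside 0.00, -0.01 and -0.01 over all genes. With the block the counts without Mcoln3 were 9, 11 and 11, beside 26.3%, 27.9% and 28.8% of all genes. At 0 h 15 of all 40 members, Mcoln3 among them, lay wholly higher and 8 wholly lower in NIP, beside 26.7% and 24.0% of all genes. At 12 h these were 16 and 7, beside 27.9% and 26.3%, and at 36 h 20 and 3, beside 27.6% and 27.2%. The types also differ in the marker sums given above, and the part of other cells in these differences was not tested.

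Mcoln3 separated the types most. It had 5 counts over both NIL libraries at 0 h and 0 counts in untreated NIL at 12 h and 36 h, against 122, 266 and 86 counts in NIP. In NIP its level was 2.77 and 6.41 CPM at 0 h, 4.01 and 6.69 CPM at 12 h and 1.91 and 3.21 CPM at 36 h. Every NIP library was above every NIL library. The level in NIP was 35.7 times that in NIL at 0 h (exact 95% counting interval 14.9 to 112), at least 64.9-fold higher at 12 h and at least 36.0-fold higher at 36 h, taking 3 counts over both libraries as the floor for NIL. These intervals and floors cover counting error only. The gene passed the filter on low counts through NIP, where it is high, so no test of its level between the types is given. With 12 h of CPA the level in NIP was 2.06 and 2.14 CPM, below both untreated libraries (log2 change -1.34, adjusted p 0.180 and, with the block, 0.0426).

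The 2 WIPI genes went in opposite directions between the types. Wipi1 was at 19.0 and 18.1 CPM in NIL and 8.63 and 11.6 CPM in NIP at 0 h, 21.5 and 20.6 against 9.76 and 11.3 CPM at 12 h, and 22.8 and 24.8 against 12.4 and 11.1 CPM at 36 h. NIP was lower in every library at each time, by -0.88, -1.0 and -1.02 on the log2 scale (adjusted p 0.00598, 0.00254 and 0.00259), and of the 12 omissions of a library only that of NIP 0 h replicate 1 ended a call (adjusted p 0.0823). Wipi2, the paralog that recruits ATG16L1 to the membrane, was at 75.1 and 85.2 CPM in NIL and 120.2 and 107 CPM in NIP at 0 h, and at 75.2 and 83.7 against 116 and 132 CPM at 36 h. It was higher in NIP in every library, by 0.50, 0.50 and 0.65 at 0 h, 12 h and 36 h (adjusted p 0.0460, 0.0499 and 0.0143). This call was less firm: each omission of a library at 0 h and at 12 h ended it, as did all but that of untreated NIP replicate 1 at 36 h, with adjusted p of up to 0.315, 0.202 and 0.126.

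Psap was higher in NIP than in NIL. It was at 242 and 345 CPM in NIL and 401 and 444 CPM in NIP at 0 h, 241 and 354 against 414 and 445 CPM at 12 h, and 252 and 366 against 604 and 657 CPM at 36 h. The groups did not overlap at any time, and the difference was called at 36 h alone without the block (log2 difference 1.03, SE 0.24, adjusted p 0.0131). It was 1.26 and 0.84 in the 2 replicate sets. Omission of untreated NIL replicate 1 or of untreated NIP replicate 2 ended the call (adjusted p 0.105 and 0.0856), as did leaving out both libraries high in Rn45s (log2 difference 1.07, adjusted p 0.0657). With the block it was called at all 3 times, with adjusted p of 0.0163, 0.0137 and 9.7e-05 at 0 h, 12 h and 36 h. From 0 h to 36 h in untreated NIP it rose by 0.58 with the block (adjusted p 0.0302), while without the block the adjusted p was 0.275.

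Map1lc3b, Npc2, Atg9a and Atg14 were each called at 1 time. Map1lc3b was at 185 and 173 CPM in NIL and 306 and 276 CPM in NIP at 36 h, with no overlap (log2 difference 0.70, adjusted p 0.0149). Npc2 was at 83.4 and 104 CPM in NIL and 132 and 137 CPM in NIP at 12 h (log2 difference 0.53, adjusted p 0.0456). Atg9a, the lipid scramblase that seeds the membrane, was at 51.5 and 48.8 CPM in NIL and 73.8 and 71.7 CPM in NIP at 12 h (log2 difference 0.54, adjusted p 0.0481). In these 3 genes the NIP libraries were the higher ones at all 3 times without overlap. Atg14, the subunit that directs the PI3 kinase to autophagosomes, was lower in NIP at 0 h, with 16.4 and 19.5 CPM against 26.9 and 25.5 CPM in NIL (log2 difference -0.55, adjusted p 0.0298), and at 36 h the types overlapped. Every omission of a library ended the calls of Map1lc3b, Npc2 and Atg9a (adjusted p of up to 0.206, 0.250 and 0.215), and omission of NIL replicate 1 or NIP replicate 1 ended that of Atg14 (0.149 and 0.204).

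**Figure D5:**
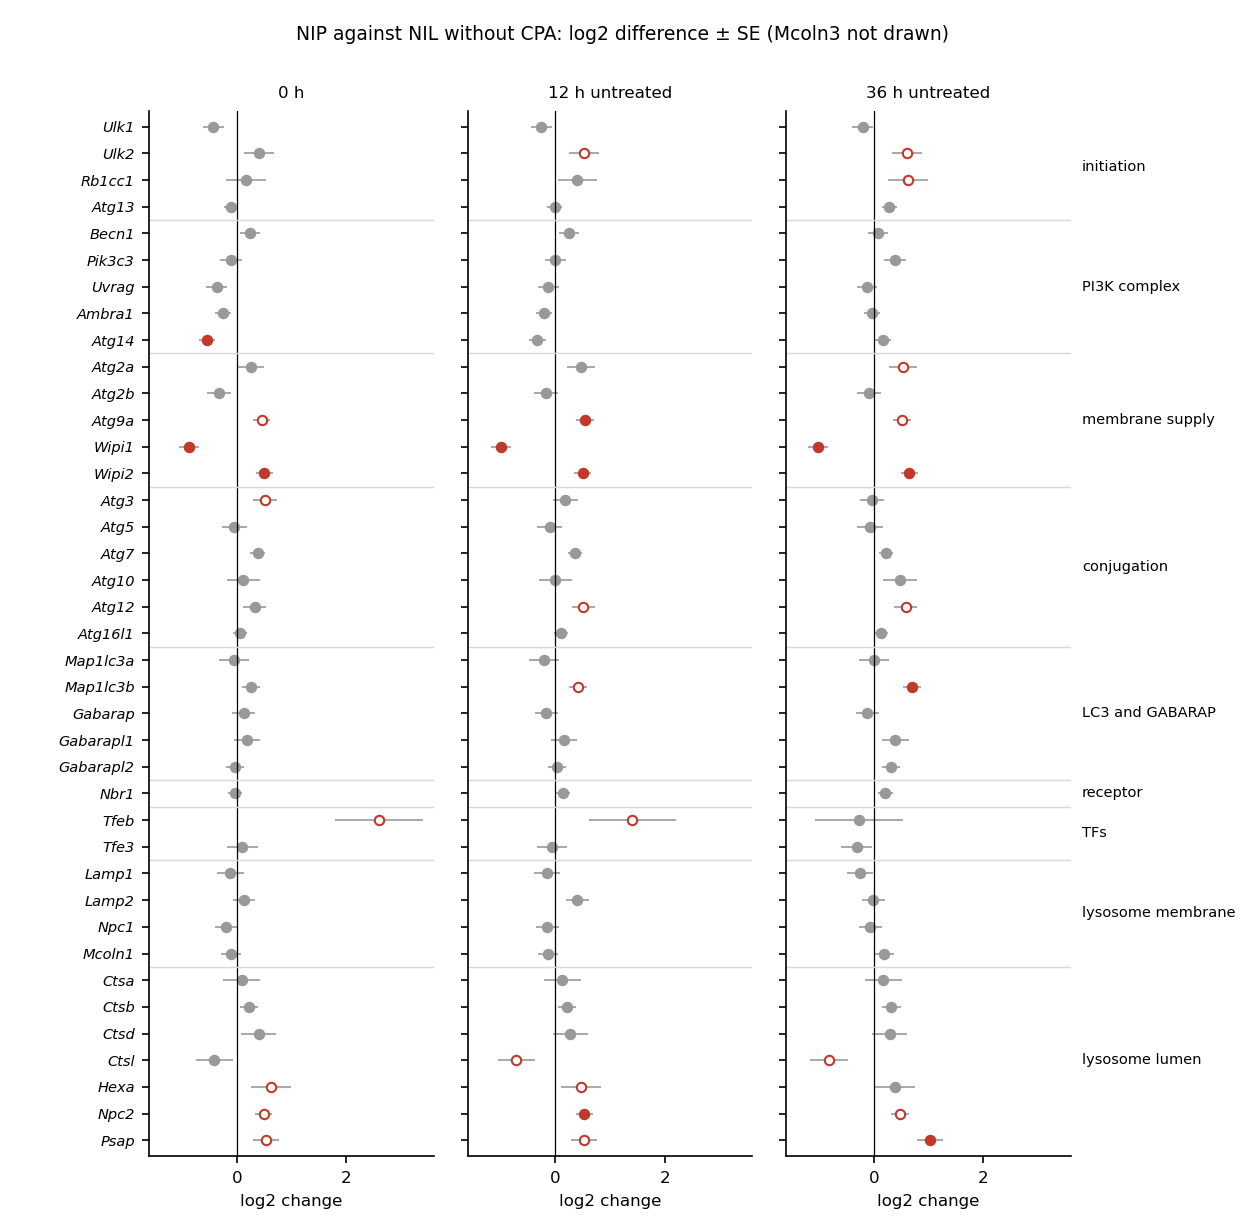
Log2 difference of untreated NIP from NIL ± SE (x axis) at 0 h, 12 h and 36 h for 39 of the 40 genes, grouped by role (y axis; Mcoln3 is left out because NIL had 0 to 5 counts). Filled red points passed without the block, open red points with the block alone and grey points in neither; Wipi1 lies near -1 and Wipi2 near 0.5 at each time.

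Without CPA, no member was called between 0 h and 36 h in the fit without the block. From 0 h to 36 h edgeR called 0 of 40 in NIL, where 0.0270% of all genes were called, with 1 member at an unadjusted p below 0.05, beside 5.78%. DESeq2 called 0, beside 0.615%, and the block 0, beside 0.940%. In NIP edgeR also called 0, where 1.29% of all genes were called, with 7 members at an unadjusted p below 0.05, beside 14.7%, and 2 in DESeq2 (Atg14 higher, Tfeb lower), beside 4.16%. With the block 4 were called in NIP, Psap and Atg14 higher and Tfeb and Atg3 lower, beside 9.09% of all genes. Atg14 went from 16.4 and 19.5 CPM to 29.4 and 23.8 CPM in NIP and stayed at 26.9 and 25.5 against 23.1 and 24.2 CPM in NIL. Atg3, the E2 enzyme of LC3 conjugation, went from 44.5 and 42.8 CPM to 33.1 and 25.5 CPM in NIP. Neither gene's libraries overlapped between 0 h and 36 h in NIP.

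The wider pathway, 162 further genes in 6 lists of which 160 were tested, was followed in the same way. After 12 h of CPA 1 gene rose and 0 fell in NIL, and 4 rose and 1 fell in NIP, beside 2.21% and 4.71% of all genes. After 36 h 0 rose and 1 fell in NIL, and 2 rose and 0 fell in NIP, beside 0.980% and 2.33%. These counts are not above the shares over all genes. In NIL at 36 h the block gave 33 higher and 11 lower. Of these, 12 of the 39 other lysosomal hydrolases were higher and 1 lower, and 8 of 26 lysosomal membrane and sorting genes were higher and 3 lower, beside 18.2% of all genes in either direction. The median log2 change of the hydrolases was 0.37 without the block.

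Of the genes that passed, Sesn2, a stress-induced inhibitor of mTORC1, was at 91.8 and 119 CPM untreated and 307 and 315 CPM with 12 h of CPA in NIL, and at 43.2 and 68.9 CPM untreated and 185 and 191 CPM in NIP (log2 changes 1.56 and 1.75). Ddit4, another inhibitor of mTORC1, was called in NIP at both times, with 20.3 and 33.0 CPM untreated and 65.7 and 71.8 CPM at 12 h, while in NIL at 12 h it was at 51.0 and 64.1 against 67.1 and 59.3 CPM, groups that overlapped. Sqstm1, the receptor p62, rose in NIP at 12 h from 296 and 285 to 462 and 452 CPM (log2 change 0.65, adjusted p 0.0132). Tmem41b, an ER lipid scramblase needed for autophagosome formation, rose in NIP at 12 h from 58.0 and 56.7 to 119.6 and 91.3 CPM (adjusted p 0.0451), and passed in NIL with the block (34.0 and 34.4 against 65.8 and 62.4 CPM). Atp6v1e1, a subunit of the proton pump that acidifies the lysosome, fell in NIP at 12 h from 185 and 173 to 116 and 105 CPM (adjusted p 0.0435). Omission of a library raised the adjusted p of each of these calls above the threshold at its highest (0.114 to 0.339 at 12 h).

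Between the types, the 6 lists held 9 genes higher and 6 lower in NIP at 0 h, 10 and 6 at 12 h, and 11 and 7 at 36 h. The shares over all genes, 12.5%, 12.0% and 11.6%, were higher than those of the lists. Atg4a, a protease that processes GABARAP proteins, was at 4.69 and 6.61 CPM in NIL and 16.8 and 16.9 CPM in NIP at 0 h (adjusted p 0.00409). Fam134b, an ER-phagy receptor, was at 23.1 and 31.1 CPM in NIL and 77.9 and 52.1 CPM in NIP at 0 h (adjusted p 0.0112). Both were higher in both NIP libraries and were called at all 3 times. Mitf, a relative of TFEB, was lower in NIP at 12 h and 36 h, with 4.11 and 3.95 CPM in NIL and 0.920 and 1.49 CPM in NIP at 12 h (adjusted p 0.0328). At 0 h its difference of -1.51 did not pass (adjusted p 0.0656).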

How the data were processed

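The authors deposited gene counts, whole reads per gene symbol from HTSeq 0.6.1p1 after TopHat2 2.1.1 and Bowtie2 2.3.2 alignment to GRCm38 (mm10), per the submitters' processing notes. The annotation release and strand setting are not given in the sources used here. RNA was total RNA depleted of ribosomal RNA, per the labels' protocols. The 5 HTSeq summary lines were left out of library sizes. Reads not aligned uniquely were 18.2% to 52.6% of all reads.

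Counts were tested with edgeR 4.0.16 (R 4.3.3): filterByExpr by group, TMM scaling and the robust quasi-likelihood test on group means of all 20 libraries, with Benjamini-Hochberg adjustment over the 14792 genes at 0.05, for 13 comparisons. The SE of a log2 change was its size over the square root of F. The script was tested on simulated data. Replicate numbers come from the titles. Differences between replicates correlated in all 45 pairs of groups (0.243 to 0.763), so the numbers pair libraries, and a fit with that number as a block is given where it changes a call. The biological coefficient of variation was 27.48% without and 15.74% with the block. DESeq2 1.42.0 was run without independent filtering. Other alternatives were another scaling, another filter, Rn45s left out, the compared groups alone and each library left out in turn.

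Levels per kilobase and positions use GENCODE gene models on GRCm38. Promoter windows come from RefSeq (GRCm38.p6). The members and lists were chosen with earlier results of these data known. Values per library are given for members called without the block in a CPA or type comparison. Uvrag, Tfeb, Tfe3, Pik3c3, Ulk2, Atg12, Gabarapl2 and the lysosomal genes called with the block alone, and Ulk1, Atg3, Ctsb and Lamp1, were named after their values were seen. Some results are not reported here.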

Additional observations from a re-analysis of the deposited data

Results flagged for a closer look

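The response of Atg13 to CPA in NIP differed between the times. The 36 h response was lower than the 12 h response, with a log2 difference of -0.85 in the fit with the replicate block, where the test of that difference passed (adjusted p 0.0310). Without the block the difference had the same size and did not pass (adjusted p 0.237). Both replicate sets had the same direction, -0.83 and -0.87.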

How the results depend on the processing

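No single gene's value that was recomputed changed direction. The median over the members did in 6 of 13 comparisons, with ranges over the alternatives of -0.13 to 0.09 (CPA 12 h NIL), -0.01 to 0.09 (CPA 12 h NIP), -0.08 to 0.10 (CPA 36 h NIP), -0.05 to 0.01 (36 h versus 0 h in NIL), -0.14 to 0.01 (line difference at 36 h) and -0.05 to 0.15 (36 h versus 12 h response in NIL). Only counts that moved by over 1.5 times are given next. Counts of members called moved most with the replicate block, to 4 (CPA 12 h NIL), 8 (CPA 36 h NIL), 5 (CPA 12 h NIP), 2 (CPA 36 h NIP), 10, 12 and 12 (NIP versus NIL at 0 h, 12 h and 36 h), 4 (36 h versus 0 h in NIP) and 1 (36 h versus 12 h response in NIP). DESeq2 gave 3 (CPA 12 h NIL), 1 (CPA 36 h NIL), 2 (36 h versus 0 h in NIP) and 1 (36 h versus 12 h response in NIP), and smaller shifts elsewhere. With the compared groups alone the counts were 0 (CPA 12 h NIL), 1, 1 and 2 (NIP versus NIL at 0 h, 12 h and 36 h) and 1 (36 h versus 0 h in NIP). Over all genes that setting called 63, then 872, 826 and 1040, and 502. Without a filter the member counts were 2 at 0 h and 2 at 12 h for NIP versus NIL, and at 12 h also 2 with RLE or upper-quartile scaling, Rn45s left out or a stricter filter. Over all genes, 1560 and 1484 were called without a filter, and 1717 to 1757 at 12 h under those further settings. Without both libraries high in Rn45s, chosen after seeing the data, the 36 h count was 3. Leaving out 1 library gave 0 to 0 (CPA 12 h NIL), 1 to 1 (CPA 12 h NIP), 1 to 4, 2 to 2 and 2 to 4 (NIP versus NIL at 0 h, 12 h and 36 h) and 0 to 0 elsewhere. The causes were not tested. With 2 libraries a group, small changes could not be detected.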
